A study of Danio rerio with 12 samples.

Results

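The data describe how open the chromatin around gene starts was in normal zebrafish embryos at 32 hours post fertilization (hpf). They come from ATAC-seq: a transposase, Tn5, places adapters wherever nucleosomes leave the DNA exposed, and the fragments it releases are sequenced, so that their number rises with openness. Of the 12 libraries in the study, the 6 of wildtype siblings of supt16h mutants were used, as 3 biological replicates of 2 technical libraries each. The animals are labelled as wildtype in strain, the labels do not give the supt16h alleles carried by each sibling, and no treatment is named. Each library was made from 50000 cells of deyolked, dissociated whole embryos. The series text speaks of 40 embryos without saying whether they were pooled per library. The deposited table gives a log2 level for a window of 4000 bp around each annotated gene start, on the GRCz10 build. Whether the annotated start of a gene was the one used in these embryos was not examined. Entries with the same window were collapsed to 15674 windows, of which 15658 had signal and were described here, covering 15315 named genes.

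A gene start that is transcribed, or poised to be, usually lies in a gap between nucleosomes that remodelling enzymes and bound transcription factors keep clear. Housekeeping genes have such a gap in nearly every cell, whereas genes for the specialised products of a tissue tend to be packed into nucleosomes outside that tissue. Regulatory genes of development often sit in broad open or Polycomb-covered domains. At 32 hpf the zebrafish embryo has a beating heart, a segmented trunk, a brain with early neurons and circulating primitive blood cells, while most of the pancreas, liver, gut and photoreceptors are still being formed.

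The level of a window is given below as the deposited log2 value, or as its distance from the median window of the same library. The 3 replicates had closely matched medians, between 7.36 and 7.38. The median SD between biological replicates, each the mean of 2 technical libraries, was 0.078 log2 units. Between single technical libraries it was 0.104 log2 units. Averaging narrows a spread, so these 2 values cannot be compared directly, and the biological part of the spread was not separated. Within each technical pair, 1 library had a narrower spread over windows (SD 1.436 to 1.486) and 1 a wider spread (SD 1.555 to 1.606). No read counts were at hand, so the depth behind a level is unknown. In whole embryos, a level averages over all cells, so a start open in few cells and a start weakly open in many cells cannot be told apart. For the same reason, differences in cell number between tissues cannot be told apart from differences in openness per cell.

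Across all windows the median level was 7.37, and the middle 50% lay between 6.23 and 8.40. A window was called open when its level lay more than 1 log2 unit above the median window, and closed when it lay more than 1 log2 unit below it, by limma's treat test over the 3 replicates with Benjamini-Hochberg adjustment at 0.05. By this rule 3586 windows, or 22.9% of those tested, were open, and 3962, or 25.3%, were closed. With the highest window of each gene taken as the gene's level, 3570 genes (23.3%) were open and 3757 genes (24.5%) were closed. These shares are the background for each gene class below. Only 616 windows lay above the median in some replicates and below it in others, and all other windows kept their side of the median in the 3 replicates.

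**Figure D1:**
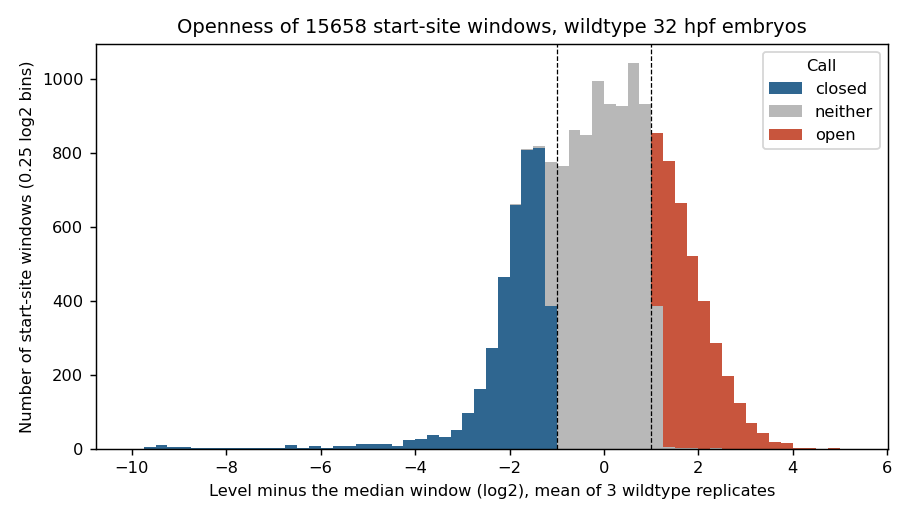
Number of start-site windows (y axis) by level minus the median window in log2 units (x axis), mean of 3 wildtype replicates, coloured by call. The dashed lines mark 1 log2 unit on either side of the median. The 3586 open windows form the right shoulder, the 3962 closed windows form a second, lower peak on the left, and a thin tail reaches the floor of the table.

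Both windows of zgc:158463, an uncharacterised gene at chr5:825000-829000, stood highest, at 12.10, 12.08 and 12.62 in the 3 replicates. Replicate 3 was above the other 2 there. Next came junbb, a subunit of the AP-1 transcription factor, at chr3:7768219-7772219, with levels of 11.77, 11.90 and 11.90. The gap between these 2 genes and the median window was 4.89 and 4.48 log2 units (limma treat adjusted p = 0.00088 and 4.5e-34), the larger p going with the wider replicate spread of zgc:158463. The phosphatase gene cdc14b, at chr8:1199439-1203439, had levels of 11.51, 11.64 and 11.74. Among the other high windows were rimkla at 11.37, 11.59 and 11.60, prothymosin alpha ptmab at 11.28, 11.38 and 11.42, zgc:153115 at 11.22, 11.40 and 11.38, and the chromatin gene arid4a at 11.27, 11.29 and 11.35. The window of the histone variant gene h3f3a lay at 11.12, 11.29 and 11.28.

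At the bottom, 38 windows had levels below 0, and 30 of these belonged to an accession that the table places at more than 1 position. Such repeated placements made up 229 windows (1.46%) of those analysed and 70 of the 100 lowest. Their median lay 3.30 log2 units below the median window, with 14 open and 182 closed. The gene sat2a, at chr7:20391214-20395214, had a single placement and stood at -2.21 in all 3 replicates, at the floor of the table. The immune gene mhc1lla stood at -2.21 and pdcl at -1.97 in every replicate. Windows of several genes shared these 2 values. Below a level of 4 the median SD between replicates was 0.039 log2 units, against 0.083 between 4 and 6. The transformation behind the values is not given, so equal values near the floor may not measure agreement of replicates. The lowest window of egr2a, a gene with several placements, stood at -1.97, -1.97 and -1.96. How reads that match several places were handled is not given in the sources used here, and the part of this handling in the low values was not tested.

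The genes were grouped into 88 lists by function or family, and 85 of these had their median on the same side of the median window in all 3 replicates. Housekeeping genes, cell division, chromatin and most transcription factor families lay above the median window. Sensory receptors, immune genes, lens proteins and the products of most tissues lay below it. The SD of a list's median over replicates was 0.053 log2 units in the middle list and at most 0.143.

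**Figure D2:**
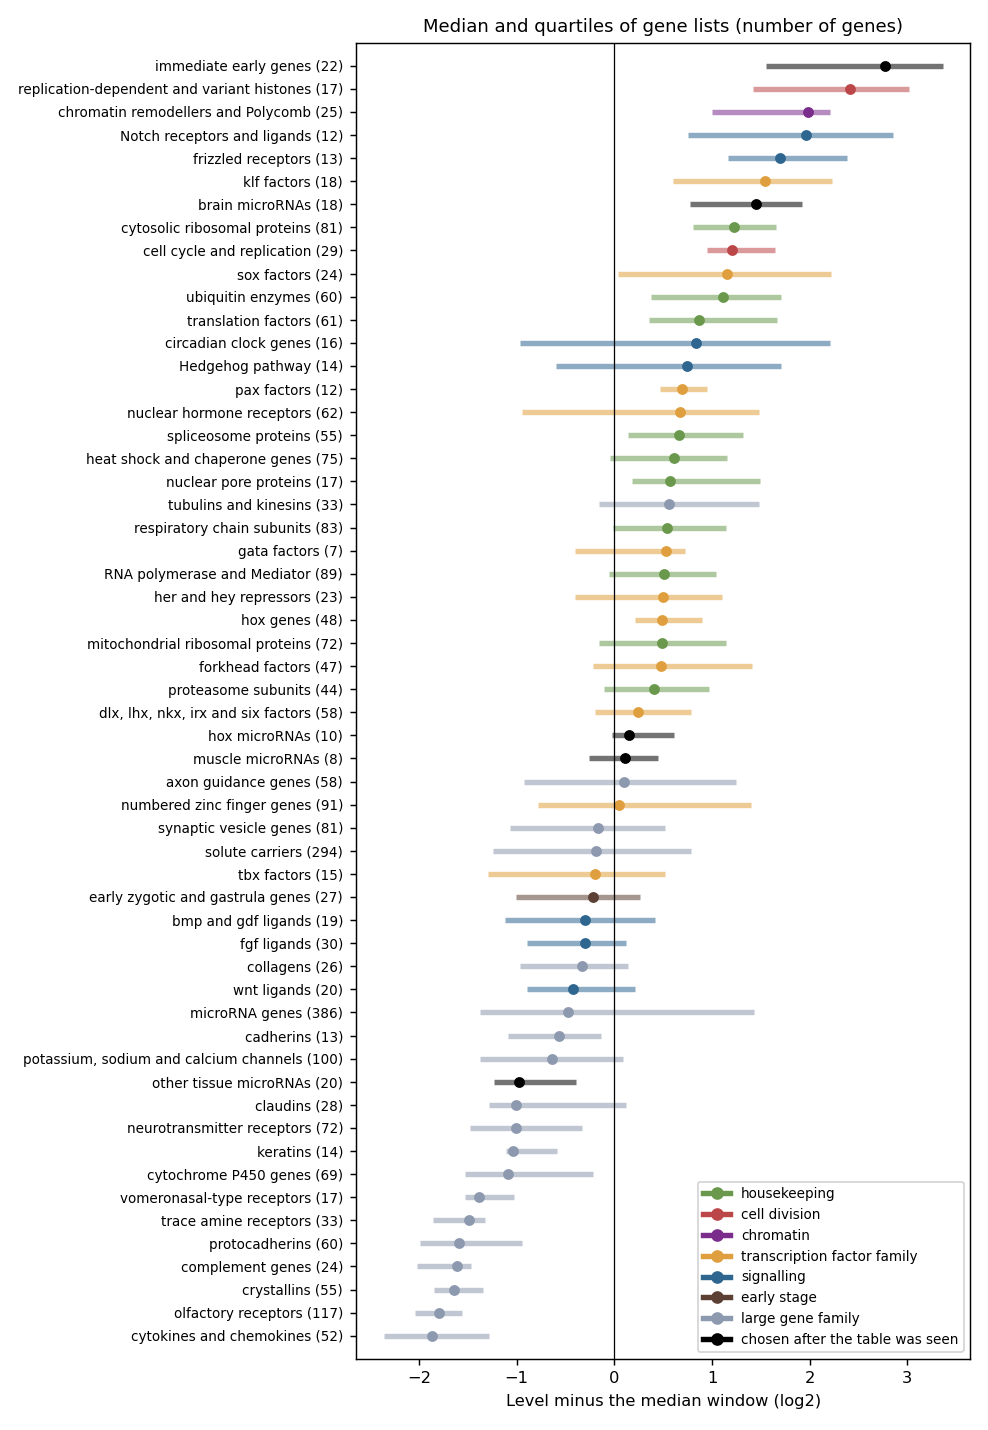
Median (point) and quartiles (bar) of the level minus the median window, in log2 units, for each list outside the tissue lists, with its number of genes and coloured by class. The immediate early genes (median 2.77) stand at the top and cytokines and chemokines (median -1.87) at the bottom.

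All 10 housekeeping lists had medians above the median window. Of their 637 genes, 217 (34.1%) were open and 29 (4.55%) closed, beside 23.3% open and 24.5% closed among all genes. The 81 cytosolic ribosomal protein genes had a median of 1.23 log2 units, with 47 open and 1 closed. At the top of this list, rpl31, a large-subunit protein gene at chr9:56642521-56646521, had levels of 10.03, 10.13 and 10.15. The rpl31 window overlaps 1 other, so its signal may be partly shared. The closed one was rps23, a small-subunit protein gene at chr11:42263903-42267903, with 4.77 in all 3 replicates (limma treat adjusted p = 6.9e-22). It lay 2.61 log2 units below the median window, while the next lowest, rps26l, lay 0.36 below it and was not called. The part of read placement or of the annotated start in the low rps23 level was not tested.

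Genes of the ubiquitin pathway, which tags proteins for degradation, had a median of 1.11, with 30 of 60 open and 4 closed. The highest was the conjugating enzyme gene ube2g1a (3.15 above the median window) and the lowest the deubiquitinase gene usp22 (2.58 below it). Translation factors had a median of 0.87, with 27 of 61 open and 2 closed. In that list, the elongation factor gene eef2b stood highest, at 10.48, 10.47 and 10.67. The elongation factor gene eef1a2, whose mammalian counterpart is used in muscle and neurons, was closed, at 5.69, 5.73 and 5.57. Spliceosome proteins had a median of 0.66 with 19 of 55 open, and nuclear pore proteins one of 0.57 with 6 of 17 open. Mitochondrial ribosomal proteins had a median of 0.49, with 18 of 72 open and 2 closed. Respiratory chain subunits had one of 0.54, with 21 of 83 open and 5 closed. RNA polymerase and Mediator subunits had a median of 0.51, with 20 of 89 open and 4 closed. Chaperones had one of 0.61, with 19 of 75 open and 3 closed. In the mitochondrial ribosomal, respiratory chain, polymerase and chaperone lists, the open shares (22.5% to 25.3%) were near the 23.3% of all genes. The closed shares of the same lists (2.78% to 6.02%) lay below the 24.5% of all genes.

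Proteasome subunits had a median of 0.41, with 10 of 44 open (22.7%), 6 closed (13.6%) and 28 not called, so that the open share was near the 23.3% of all genes. Of the closed ones, 4 lie side by side on chromosome 19: psmb8a, psmb9a, psmb10 and psmb12. In mammals, the counterparts of psmb8a, psmb9a and psmb10 are the catalytic subunits of the immunoproteasome, which replaces the standard one in immune cells. The psmb8a window, at chr19:7189655-7193655, stood at 4.02, 4.05 and 4.06. Those of psmb10 and psmb12 overlap and stood at 4.55, 4.65 and 4.56 for psmb10, and at 4.54, 4.64 and 4.55 for psmb12. The psmb9a window stood at 4.56, 4.70 and 4.46. The standard subunit gene psmb7 lay 1.79 above the median window and was open, and psmb5 lay 1.02 above it and was not called.

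Histone genes and cell cycle and replication genes both had list medians above the median window. The histone list, of replication-dependent and variant genes, had a median of 2.41 log2 units, with 14 of 17 open (82.4%). Alongside h3f3a, the H2A.Z gene h2afz stood at 11.16, 11.20 and 11.22, and the H4 gene hist1h4l at 10.17, 10.31 and 10.26. The h2afz window overlaps 2 others, so its signal is partly shared. In this list, 1 gene was closed: h1m, the linker histone that zebrafish use in eggs and early embryos, with 4.85, 4.83 and 4.75 on an unplaced contig (limma treat adjusted p = 2e-21).

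Cell cycle and replication genes had a median of 1.2, with 16 of 29 open and none closed, beside 24.5% closed among all genes. The sliding clamp gene pcna stood at 9.94, 10.12 and 10.15, and the replicative helicase gene mcm7 at 10.02, 10.11 and 10.03. The lowest was rrm2, a ribonucleotide reductase gene, at 6.70, 6.66 and 6.65, or 0.71 below the median window and not called. Chromatin remodellers and Polycomb genes had a median of 1.98, with 17 of 25 open and none closed. The Polycomb methyltransferase gene ezh2 lay 2.87 above the median window, and the deacetylase gene hdac1 stood at 9.38, 9.42 and 9.49. The lowest of them was smarca4a, an ATPase gene of the BAF remodeller, at 6.49, 6.44 and 6.47.

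Transcription factor families differed in how far they lay above the median window. In all, 121 of 405 such genes (29.9%) were open and 46 (11.4%) closed. The klf genes, zinc finger factors of epithelia and blood, had a median of 1.54 with 11 of 18 open. Here klf6a stood highest, at 10.36, 10.39 and 10.24, and the red cell factor gene klf1 lowest, at 6.54, 6.42 and 6.57. Neither klf1 nor any other klf gene was closed. The sox genes had a median of 1.15, with 12 of 24 open. Those open included sox4b (3.22 above the median window), sox11a and sox11b (2.30 and 2.47), which act in young neurons, and sox2 and sox3 (2.22 and 1.86) of neural progenitors. Below the median window lay the vessel factor gene sox7 (-0.49, not called) and sox6 (-1.60), the closed one.

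The hox genes, which pattern the body axis, kept within a narrow range. Their median was 0.49, with 5 of 48 open (10.4%) and none closed. The highest was hoxa3a at 9.21, 9.29 and 9.28, and the lowest hoxc13b at 7.07, 6.91 and 6.92. By position in the clusters, the paralog groups 1 to 5 of the head and anterior trunk had medians of 0.83, 1.34, 0.72, 0.87 and 0.98. The posterior groups 10, 11, 12 and 13 had medians of 0.24, 0.10, 0.27 and -0.04. All 5 open hox genes (hoxa3a, hoxa2b, hoxc4a, hoxa5a and hoxb2a) belonged to groups 2 to 5.

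Homeobox genes of the dlx, lhx, nkx, irx and sine oculis-related families also stayed near the middle, with a median of 0.24, 8 of 58 open and 1 closed, nkx6.3, whose mouse counterpart acts in the stomach. Nuclear hormone receptors had a wide range, with 24 of 62 open (38.7%) and 14 closed (22.6%). Their closed share was near the 24.5% of all genes, while 23.3% of all genes were open. The retinoic acid receptor gene rarga stood at 10.13, 10.27 and 10.14, and the estrogen receptor gene esr2a at 5.22, 5.23 and 5.18. Zinc finger genes named by number ran from znf367, at 10.65, 10.81 and 10.87, to znf973, at 3.48, 3.44 and 3.62, with 37 of 91 open and 18 closed. The tbx list was the only factor family with a median below the median window (-0.20). There the mesoderm genes tbx16 (-1.67), tbx6l (-1.58) and tbx6 (-2.02) were closed, and tbx2a was open at 8.67, 8.85 and 8.75.

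In the Wnt pathway the receptors lay high and most ligands near or below the median window. Frizzled receptors, which bind Wnt proteins, had a median of 1.70, with 10 of 13 open (76.9%). The Wnt ligands had a median of -0.42, with 2 of 20 open (10.0%). The receptor gene fzd1 stood at 10.45, 10.76 and 10.63, against the ligand gene wnt5b at 6.09, 5.92 and 5.90. The 2 open ligand genes were wnt11, at 9.04, 9.13 and 9.12, and wnt3, 1.23 above the median window. The single closed receptor was fzd3b, at 5.47, 5.27 and 5.29. The fgf ligands had a median of -0.30 with 1 of 30 open, fgf12b. The fgf12b call was lost without replicate 1 (limma treat adjusted p = 0.053) and without replicate 3 (adjusted p = 0.52). Ligands of the bmp and gdf families had a median of -0.30, with 2 of 19 open, gdf11 and bmp3.

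Notch signalling, in which neighbouring cells choose between fates, had open genes for ligands and receptors. Of the 12 receptor and ligand genes, 8 were open and none closed, with a median of 1.96. The ligand gene dla, at chr1:53351712-53355712, stood at 10.87, 10.93 and 10.88, and dld at 10.50, 10.56 and 10.48. The receptor genes notch1a and notch2 lay 2.86 and 1.24 above the median window and were open, while notch1b and notch3 lay 0.67 and 0.51 above it and were not called. The her and hey repressors, many of which Notch switches on, had a median of 0.50, with 6 of 23 open and 1 closed. Their open share (26.1%) was near the 23.3% of all genes. The open ones included hes6 (3.27), her6 (2.74) and her9 (2.48). The segmentation clock gene her1 was closed, at 6.02, 6.1 and 6.29 (limma treat adjusted p = 0.00045). Measured from the lower median of the windows that overlap no other, her1 was not called (limma treat adjusted p = 0.061). Its partner in the clock, her7, lay 0.16 below the median window. In the Hedgehog pathway, ptch1, a receptor gene that the pathway itself induces, stood at 10.00, 10.13 and 10.03. The factor gene gli1 and the transducer gene smo (1.74 and 1.59) were also open. The ligand gene shha lay 0.12 above the median window, and the ligand genes ihha (-1.19) and dhh (-1.64) were closed.

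Immediate early genes, which cells switch on within minutes of a stimulus, were the most open list. This list was chosen after the table was seen. Its median was 2.77 log2 units, and 20 of 22 genes (90.9%) were open. Beside junbb, dusp1 stood at 10.96, 10.98 and 10.99, egr1 at 10.86, 10.95 and 10.80, and fosab at 10.88, 10.76 and 10.63. The flow-responsive factor gene klf2a lay 0.24 below the median window, and socs3a stood near the floor at -0.40, -0.38 and -0.39. ATAC-seq measures openness and not transcription, so these levels do not say whether the genes were being transcribed.

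Circadian clock genes ranged widely. Of 16 genes, 7 were open, 4 closed and 5 not called, a closed share near the 24.5% of all genes. The repressor genes nr1d2b (2.80), per1b (2.73), cry1aa (2.29) and per3 (2.18) and the activator gene arntl2 (2.74) were open. The closed ones were per1a (-2.17), clocka (-2.05), arntl1b (-1.59) and aanat2 (-1.39), which makes melatonin in the pineal gland. The light-induced gene per2 lay 0.83 below the median window and was not called. For 5 clock genes both an a and a b gene were measured, and those pairs are given below.

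For 16 tissues, the genes were split into regulators, the transcription factors that set up the tissue, and products, the proteins its mature cells make. Regulators lay near the median window and products below it. Of 177 regulators, 32 (18.1%) were open and 24 (13.6%) closed, with a median of 0.18. Of 343 products, 17 (4.96%) were open and 192 (56.0%) closed, with a median of -1.32. Among all genes 23.3% were open and 24.5% closed. The open shares of both groups lay below that of all genes, as did the closed share of the regulators. Over the 3 replicates the regulators' median lay 1.43 ± 0.024 log2 units (SD, n = 3) above the products' median. It was higher in all 3 replicates in 16 of 16 tissues. Some regulators, such as isl1, stand in the lists of several tissues, so the 16 comparisons are not separate. The lists were chosen with earlier results of these data known. The SD covers the replicates and not the choice of genes. The difference was largest in the pancreas, at 3.10 ± 0.05 log2 units, and smallest in notochord and skeleton, at 0.19 ± 0.04.

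**Figure D3:**
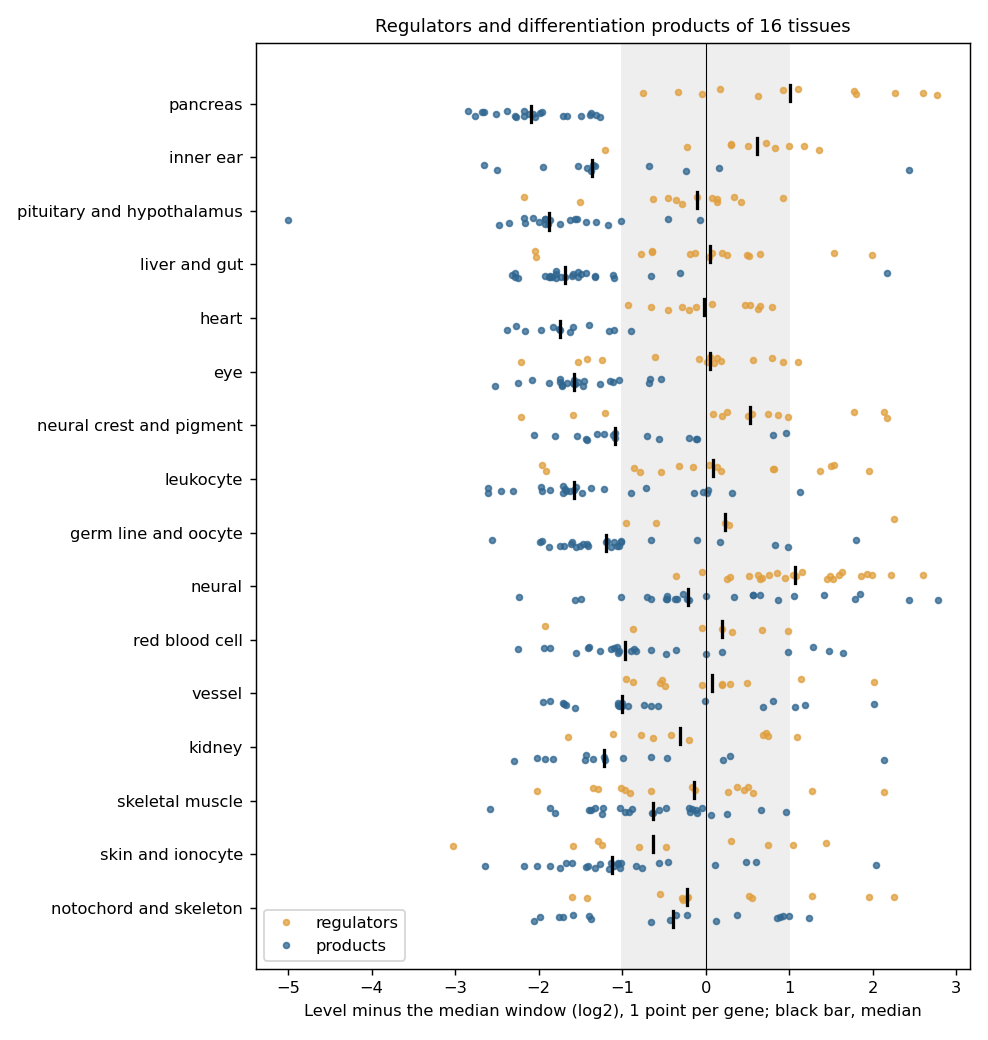
Level minus the median window (x axis, log2 units) of each regulator (orange, upper row) and each product (blue, lower row) of 16 tissues, ordered by the difference of their medians (black bars). The grey band spans 1 log2 unit on either side of the median window. Pancreas products all lie left of the band and left of every pancreas regulator, and the difference of the medians shrinks from 3.10 in the pancreas at the top to 0.19 in notochord and skeleton at the bottom.

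Among the tissues, nervous tissue had the largest number of open regulators, in the longest regulator list. Of 24 neural regulators, 11 (45.8%) were open and none closed, with a median of 1.06, beside 23.3% open among all genes. Pancreas regulators came close by share, with 41.7% open and a median of 1.01. The neuronal differentiation gene neurod1 stood at 9.94, 10.06 and 9.94, neurog1 at 9.33, 9.45 and 9.31, and sox2 at 9.66, 9.63 and 9.49. Neural products had a median of -0.21, with 5 of 26 open and 3 closed. The pan-neuronal RNA-binding protein gene elavl3 stood at 9.76, 9.88 and 9.78, and the synaptic vesicle gene vamp2 at 10.12, 10.12 and 10.23. The synaptophysin gene sypb (1.85) and the myelin gene plp1a (1.79) were also open. The 3 closed products were chata of acetylcholine synthesis, at 5.16, 5.09 and 5.20, th of dopamine synthesis (-1.49), and the vesicle calcium sensor gene syt1a, at 5.95, 5.83 and 5.68. Other genes of transmitter use and release were not called, among them the GABA enzyme genes gad1b (-0.47) and gad2 (-0.70), the glutamate transporter genes slc17a6a (-0.65) and slc17a6b (1.06), and the fusion protein genes snap25a (-0.46) and snap25b (-0.20).

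In the eye, 18 of 23 photoreceptor and pigment epithelium products were closed and none open, with a median of -1.58. The cone opsin gene opn1sw1 stood at 6.01, 5.66 and 5.86, and the rod opsin gene rho at 6.84, 6.57 and 6.66, rho without a call. Eye regulators had a median of 0.05, with 1 of 15 open, six3a, at 8.57, 8.46 and 8.42. The six3a call rested on a small margin (limma treat adjusted p = 0.046) and was lost without replicate 1 (adjusted p = 0.3) and without replicate 2 (adjusted p = 0.073). The retinal ganglion factor gene atoh7 (-1.24) and the rod factor genes nrl (-1.53) and nr2e3 (-1.42) were closed. In the inner ear, the hair cell factor genes atoh1a (8.50, 8.57 and 8.59) and atoh1b (8.66, 8.59 and 8.91) were open. Of 12 hair cell products 8 were closed, among them the mechanotransduction gene tmc1 at 6.05, 5.97 and 5.85 and the myosin gene myo7aa at 4.75, 4.69 and 4.71. The calcium pump gene atp2b1a, used in many tissues, was open at 9.77, 9.76 and 9.87.

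Skeletal muscle products had a median of -0.64, with 8 of 26 closed (30.8%, beside 24.5% of all genes) and none open. The actin gene actc1b stood at 8.10, 8.58 and 8.32, acta1b at 7.25, 7.39 and 7.35, and the creatine kinase gene ckma at 7.6, 7.73 and 7.58. The closed ones included the slow myosin gene smyhc1, at 6.12, 6.21 and 6.12, and the troponin gene tnnt3a, at 4.88, 4.85 and 4.64. Of the myogenic factor genes, myod1 stood at 7.88, 7.81 and 7.83 and myog at 6.38, 6.54 and 6.49, neither called, while myf5 (6.18, 6.00 and 6.08) was closed. In the heart, 11 of 13 products were closed, with a median of -1.74, and none of 12 regulators was called either way. The ventricular and atrial genes vmhc (5.85, 5.71 and 5.78), myl7 (5.61, 5.59 and 5.72) and nppa (5.62, 5.67 and 5.55) were closed. The heart factor gene gata4 stood at 7.88, 7.83 and 8.0, hand2 at 7.22, 7.26 and 7.29, and nkx2.5 at 6.56, 6.35 and 6.42.

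Vessel and blood genes gave a mixed picture. Vessel products had a median of -1.0, with 2 of 22 open (9.09%) and 6 closed (27.3%). Their closed share was near the 24.5% of all genes, while 23.3% of all genes were open. The arterial ligand gene efnb2a, also used in somites and hindbrain, stood at 9.40, 9.43 and 9.34. The VEGF receptor gene kdrl stood at 6.69, 6.53 and 6.69, and the junction gene cdh5 at 6.69, 6.78 and 6.93, neither called, and tie1 (5.51, 5.42 and 5.35) was closed. Among vessel regulators, nr2f2 (9.43, 9.47 and 9.30) and fli1a (8.40, 8.45 and 8.68) were open. The fli1a call was lost without replicate 3 (limma treat adjusted p = 0.39, against 0.021 with all replicates). Red blood cell products had a median of -0.96, with 3 of 24 open and 8 closed. The 3 open ones, alad (8.95, 9.16 and 8.95), fech (1.47) and slc25a37 (1.28), act in heme synthesis and mitochondrial iron import. The alad window overlaps 1 other, so its signal may be partly shared. The embryonic globin gene hbbe1.1 stood at 7.48, 7.47 and 7.19 and hbae1 at 6.60, 6.55 and 6.44, neither called. The red cell factor gene gata1a was closed, at 5.46, 5.51 and 5.38.

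Leukocyte products were mostly closed, 17 of 25, with a median of -1.58. The macrophage gene mpeg1.1 stood at 5.83, 5.69 and 5.73, the neutrophil gene mpx at 5.18, 5.11 and 4.92, and lyz at 5.73, 5.79 and 5.61. The only open one, rag2, at 8.43, 8.55 and 8.52, lost its call without replicate 2 (limma treat adjusted p = 0.13) and without replicate 3 (adjusted p = 0.064). The myeloid factor genes spi1a (5.26, 5.48 and 5.51) and spi1b (5.63, 5.35 and 5.42) were closed. The blood stem cell factor gene myb (9.35, 9.35 and 9.28) was open, and runx1 (6.85, 6.78 and 6.90) was not called.

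In the pancreas, 22 of 22 products were closed, with a median of -2.09. The insulin gene ins, at chr5:37252542-37256542, stood at 5.37, 5.19 and 5.06, the glucagon gene gcga at 5.14, 4.99 and 5.14, and the trypsin gene try at 4.83, 4.60 and 4.65. The highest of them, the somatostatin gene sst2, was still closed, at 6.11, 5.96 and 6.24. Pancreas regulators had a median of 1.01, with 5 of 12 open. Of those open, insm1a (10.07, 10.29 and 10.08), insm1b (2.27), neurod1, nkx6.2 (1.80) and sox9b (1.77) also act in the nervous system or neural crest. The more pancreas-restricted pdx1 stood at 6.80, 6.45 and 6.62, and ptf1a at 7.58, 7.38 and 7.66, neither called. In liver and gut, 22 of 27 products were closed, among them the transferrin gene tfa (5.58, 5.56 and 5.6), the fibrinogen gene fgb (5.68, 5.34 and 5.48) and fabp10a (5.92, 5.72 and 5.88). The open one, igfbp1a, at 9.55, 9.46 and 9.62, is a growth factor binding protein gene that responds to hypoxia. The factor gene foxa2 stood at 7.78, 7.95 and 7.97, and hnf4a (5.39, 5.37 and 5.27) was closed.

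In the kidney 9 of 15 products were closed, including the filtration slit gene nphs1 (5.99, 6.00 and 5.81). The endocytic receptor gene lrp2a was open, at 9.42, 9.53 and 9.56. The podocyte factor gene wt1b (5.68, 5.84 and 5.64) was closed and pax2a (8.14, 8.02 and 8.12) not called. Skin and ionocyte products had a median of -1.12, with 13 of 26 closed. The surface keratin gene krt4 stood at 7.48, 7.66 and 7.30 and the E-cadherin gene cdh1, closed, at 5.50, 5.51 and 5.54. The N-cadherin gene cdh2 of neural and mesodermal cells was open, at 9.70, 9.65 and 9.51. Skin regulators were the lowest of the regulator lists, with a median of -0.63 and 4 of 10 closed. The ionocyte factor gene foxi3a (6.17, 6.19 and 6.05) was closed. Measured from the lower median of the windows that overlap no other, foxi3a was not called (limma treat adjusted p = 0.062). The foxi3a call was also lost with the narrower library of each technical pair (limma treat adjusted p = 0.17). In the same list, tfap2c (8.76, 8.75 and 8.94) was open.

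Pigment cell products had a median of -1.09, with 7 of 17 closed and none open. The melanin gene tyrp1b stood at 5.61, 5.57 and 5.50, and dct, not called, at 6.38, 6.17 and 6.29 (limma treat adjusted p = 0.12, and 0.046 without replicate 1). The melanocyte factor gene mitfa was closed, at 5.32, 5.10 and 5.09, whereas the neural crest genes foxd3 (8.36, 8.29 and 8.45) and sox10 (8.13, 8.22 and 8.37) lay above the median window without a call. Measured from the lower median of the windows that overlap no other, foxd3 was open (limma treat adjusted p = 0.031). In notochord and skeleton, the cartilage collagen gene col2a1a was open, at 8.61, 8.58 and 8.66, and sox9a, its activator, at 9.61, 9.57 and 9.69. The later cartilage and bone genes matn1 (5.30, 5.35 and 5.33) and col10a1a (-1.99) were closed. Germ line products were closed in 16 of 27, including ddx4 (5.99, 6.00 and 5.86), while nanos3 (6.47, 6.25 and 6.29) and dnd1 (6.75, 6.71 and 6.68) were not called. Pituitary and hypothalamus products were closed in 19 of 22. The growth hormone gene gh1 stood at 5.55, 5.42 and 5.35, prl at 5.47, 5.25 and 5.19, and pomca at 5.40, 5.38 and 5.34. The gene of the shared hormone alpha subunit, cga, was much lower than these, at 2.38, 2.4 and 2.33. The part of read placement in this low level was not tested.

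Genes of the early zygote and gastrula, a stage the embryos had passed, had none of 27 open and 7 closed, with a median of -0.22. The closed share (25.9%) was near the 24.5% of all genes, while 23.3% of all genes were open. The pluripotency factor gene pou5f3 stood at 8.16, 8.13 and 8.32, and nanog lay 0.42 below the median window, neither called. The organizer gene gsc was at the median window (0.01), and the endoderm inducer gene mixl1 (-1.57), the Nodal inhibitor gene lft2 (-1.47) and mxtx2 (-1.49) were closed.

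Many genes of large families that serve the senses, immunity and the lens were closed, beside 24.5% closed and 23.3% open among all genes. Of 117 olfactory receptor genes, 114 (97.4%) were closed and none open, with a median of -1.79, and the highest, or104-2, stood at 6.76, 6.66 and 6.72. Trace amine receptors were closed in 30 of 33 and vomeronasal-type receptors in 10 of 17. The 1 open vomeronasal-type gene, ora1, had levels of 8.72, 8.90 and 8.80. Its window overlaps 1 other, so its signal may be partly shared. Crystallins, the proteins that fill the lens, were closed in 47 of 55, with a median of -1.64. Complement genes were closed in 23 of 24, the highest being c8b, at 6.39, 6.33 and 6.24, without a call. Cytokines and chemokines were closed in 40 of 52 and none was open, with il15 highest, at 7.94, 7.99 and 8.23. The stem cell homing ligand genes cxcl12a (-0.69) and cxcl12b (-0.80), used to guide migrating cells in the embryo, were not called.

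Cytochrome P450 genes were closed in 32 of 69 (46.4%) and open in 3 (4.35%), beside 24.5% closed and 23.3% open among all genes. Neurotransmitter receptors had none of 72 open and 30 closed, and potassium, sodium and calcium channels 3 of 100 open and 36 closed. Synaptic vesicle genes lay nearer the median window, at -0.17, with 9 of 81 open. Protocadherins split by their place in the genome. Of 60 members 41 were closed, all of them in the clusters on chromosomes 10 and 14, down to pcdh2g4 at 1.81, 1.76 and 1.73. The part of read placement in the low levels of these clusters was not tested. The separately placed genes pcdh18b (10.44, 10.68 and 10.60), pcdh10b (2.4), pcdh19 (1.83), pcdh17 (1.76) and pcdh18a (1.26) were open, as was pcdh1g32 (1.72) of the chromosome 10 cluster. Claudins, which seal epithelia, had 12 of 28 closed, while cldn5a, a claudin of brain and vessels, was open at 10.14, 10.16 and 10.15. The cldn5a window overlaps 1 other, so its signal may be partly shared. Axon guidance genes stood at 0.10, with 19 of 58 open (32.8%) and 13 closed (22.4%), a closed share near that of all genes. Tubulins and kinesins stood at 0.56, with 12 of 33 open.

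MicroRNA genes sat in 349 windows, of which 59 (16.9%) were open and 148 (42.4%) closed, beside 22.9% and 25.3% of all windows. These include names placed at several windows, such as those of mir430, with 22 of 52 windows closed. Each window lies around the annotated start of a microRNA entry. Where the transcript that carries the microRNA begins was not examined, so its promoter may lie elsewhere. By the highest window of each name, 97 of 386 microRNA names (25.1%) were open and 119 (30.8%) closed. The 386 names share 296 windows, so 1 window can count under several names, and the names are not separate measurements. Among all genes these shares were 23.3% and 24.5%, so the open share by name was near that of all genes. The most open was mir7a-3, at 11.17, 11.33 and 11.32. Small lists by tissue, chosen after the table was seen, differed from each other. Brain microRNAs had a median of 1.45, with 11 of 18 open and none closed, led by mir9-2 (9.88, 10.02 and 9.85) and mir124-6 (9.51, 9.58 and 9.55). Muscle microRNAs had a median of 0.11, with mir1-2 open at 8.89, 9.05 and 9.02 and mir206-2 closed at 5.86, 5.89 and 5.85. MicroRNAs of other tissues had a median of -0.98, with 7 of 20 closed and none open, among them the liver gene mir122 (-0.92, not called) and the immune gene mir155, closed at 5.56, 5.43 and 5.49. Those of the hox clusters had a median of 0.15, with 1 of 10 open, mir10b-2. The windows of mir1-2 and mir10b-2 each overlap 1 other, so their signal may be partly shared.

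The microRNAs of the mir430 cluster clear maternal RNA in the early embryo. Among named windows above the median window, this cluster held 10 of the 12 with the widest spread between replicates. Windows below the median window were not ranked by spread. It lies on chromosome 4 as a run of 50 overlapping windows, and many of its names are placed at several of them. The 21 windows from 28736728 to 28746555 had medians of 10.28, 10.15 and 9.18 in the 3 replicates, and replicate 3 was below both others in 21 of 21. The next 18 windows, reaching 28752284, had medians of 2.41, 2.32 and 2.32 and were all closed. The last 11 windows, up to 28756811, had medians of 6.44, 6.65 and 7.08, and there replicate 3 was above both others in 11 of 11. So replicate 3 was lower at one end of the cluster and higher at the other. Of the first 21 windows 13 were open, and several of these calls were lost with a replicate left out. For the window named dre-mir-430c-10 the limma treat adjusted p was 0.021, and 0.14 without replicate 1. The windows share reads where they overlap, and the copies share sequence, so they are not separate measurements. The part of read placement among copies was not tested. Outside this cluster, mif4gdb on chromosome 3 (9.38, 9.50 and 8.43) and zgc:174288 (7.89, 8.20 and 7.02) were also lower in replicate 3.

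**Figure D4:**
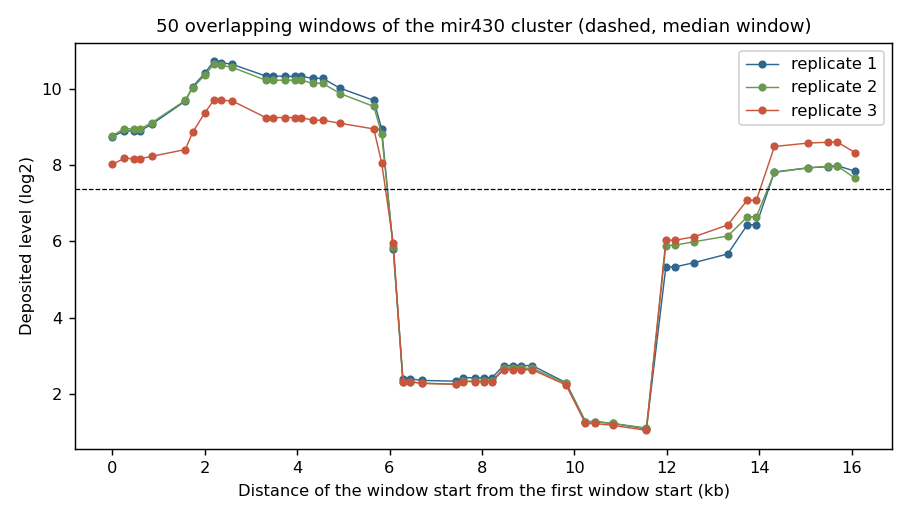
Deposited log2 level (y axis) of 50 overlapping windows of the mir430 cluster by distance of the window start from the first one in kb (x axis), with 1 line per wildtype replicate. The dashed line is the median window (7.37). Replicate 3 lies below the other 2 in the first 21 windows and above them in the last 11.

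Windows also differed by their neighbourhood. Where 2 genes start in opposite directions within 1000 bp, the 941 windows had a median of 0.88, with 393 open (41.8%) and 28 closed (2.98%). Such windows overlap, so a single open region counts for both genes. The 12330 windows that overlap no other had a median of -0.13, with 21.0% open and 27.5% closed. Windows named only by noncoding accessions had a median of -0.87, with 42.4% closed. The microRNA windows described above, with the same closed share, were not taken out of this set, so it is not a separate result. By chromosome, the medians lay between -0.29 and 0.18, except on chromosome 4, where the 634 windows had a median of -0.62, with 15.9% open and 37.2% closed. Chromosome 4 holds, on its long arm, repeats and tandem families of zinc finger and immune genes. The next lowest were chromosome 22 (-0.29) and chromosome 15 (-0.28, with 33.7% closed).

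The teleost genome was duplicated in an ancestor of zebrafish, and many genes survive as copies named a and b. Pairs were found by such names. Of these, 234 were dropped because a gene description was given and did not end in the matching a or b. Another 3 were dropped because their windows overlapped. Some pairs, such as wnt5a/wnt5b, are paralogs that mammals have too. Of the 1350 pairs kept, the a gene was higher by over 1 log2 unit in 280 (20.7%) and the b gene in 224 (16.6%). These calls came from limma's treat test on the difference within each replicate. The median absolute difference was 0.86 log2 units. In 846 pairs neither gene was called higher. Both genes were open in 184 pairs and both closed in 128, while 61 pairs had 1 open and 1 closed gene. The open one was the a gene in 34 of these and the b gene in 27. Over all 1350 pairs, 387 a genes were open and 266 closed, and 352 b genes were open and 281 closed.

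**Figure D5:**
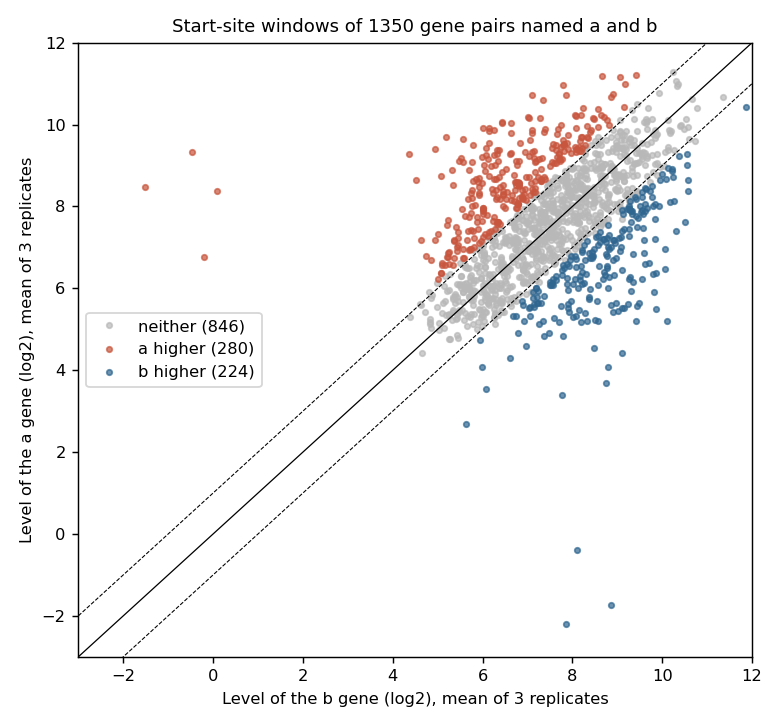
Level of the a gene (y axis) against the b gene (x axis), as the deposited log2 value, mean of 3 replicates, for 1350 pairs coloured by call. Dashed lines mark a difference of 1 log2 unit. The 280 pairs with a higher a gene lie above the band and the 224 with a higher b gene below it, and a few points lie near the floor on 1 axis.

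Of the 12 pairs with the largest called differences, 6 in each direction, 8 had 1 gene below a level of 4. In egr2a/egr2b, the hindbrain gene egr2b stood at 8.84, 8.90 and 8.88 and its copy egr2a at -1.74, -1.74 and -1.73. In adoa/adob, the cysteamine dioxygenase gene adoa stood at 9.29, 9.30 and 9.35 and adob at -0.49, -0.47 and -0.47. The adob gene was placed at 2 windows and egr2a at 3, and their highest windows neighbour each other at chr17:43667402-43671402 and chr17:43673628-43677628. The rnf34b and ppifb genes had 2 placements each, whereas anxa11b, sat2a, socs3a and gna13a had a single one. Since a value near the floor may come from the placement of reads, which was not tested, no fold is given for these pairs.

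Among the pairs with both genes at a level of 4 or more, the largest difference was 4.91 log2 units, in abhd2a/abhd2b. The lipid hydrolase gene abhd2a stood at 9.09, 9.36 and 9.40, and abhd2b at 4.46, 4.36 and 4.29. For moesin, a linker between membrane and actin, msna stood at 9.63, 9.69 and 9.76 and msnb at 5.12, 5.22 and 5.23. The splicing factor gene srsf1a stood at 8.62, 8.64 and 8.68, and srsf1b at 4.57, 4.50 and 4.48. In the other direction, mafga stood at 4.49, 4.38 and 4.41 and mafgb at 9.04, 9.17 and 9.08. The translation termination gene etf1a stood at 5.47, 5.51 and 5.52, and etf1b at 9.81, 9.84 and 9.96. The etf1a window is listed from -1358 to 2642 on an unplaced contig, so part of it lies beyond the contig's end. The part of this in its low level was not tested. In each of these pairs the groups of 3 values were far apart, and 1 gene was open and the other closed. The pairs msna/msnb, srsf1a/srsf1b, mafga/mafgb and etf1a/etf1b had differences of 4.51, 4.13, -4.67 and -4.37 log2 units, a minus b.

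Clock genes differed in 5 of 5 pairs, beside 37.3% of all pairs. Of these, per1a stood at 5.31, 5.19 and 5.11 and per1b at 10.02, 10.09 and 10.21, a difference of -4.90 log2 units. The activator genes went in opposite directions: arntl1a stood at 8.59, 8.55 and 8.69 and arntl1b at 5.90, 5.75 and 5.73, while clocka stood at 5.36, 5.27 and 5.34 and clockb at 8.0, 8.13 and 8.09. The smallest of the 5 differences was 1.33 log2 units, with cry1aa at 9.51, 9.72 and 9.78 and cry1ab at 8.23, 8.35 and 8.44 (limma treat adjusted p = 3.7e-05). Hox pairs lay at the other end, with 0 of 10 called, a median absolute difference of 0.28 and a largest difference of 0.62 log2 units in hoxc13a/hoxc13b. Sox pairs differed in 1 of 7, homeobox pairs of the dlx, lhx, nkx, irx and sine oculis-related families in 2 of 16, neurotransmitter receptors in 3 of 16 and solute carriers in 19 of 37. Other pairs with 1 open and 1 closed gene included foxp1a/foxp1b (9.11 and 5.48), gli2a/gli2b (9.25 and 6.25), fzd3a/fzd3b (8.53 and 5.34), stat5a/stat5b (8.57 and 5.99) and ahr1a/ahr1b (6.01 and 8.79), as means over the 3 replicates.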

How the data were processed

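ATAC-seq was measured in whole embryos of wildtype siblings. Per the deposited table, the authors gave log2 values per gene start, with all 12 libraries in 1 table and medians near each other; the transformation is not given in the sources used here. Per the submitters' processing notes, CASAVA 1.8, FastQC 0.11.2, HOMER 4.9 and the build GRCz10 (danRer10) were used. How reads were aligned, filtered for duplicates or mitochondrial origin and shifted for Tn5 is not stated there, so its effect on levels could not be checked.

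The 6 wildtype columns matched their group by name only, and technical libraries were averaged to 3 replicates. Of 16555 entries, those with the same window were collapsed (they differed by at most 0.219), and 16 windows at 0 in every library were left out. Entries without a name (567) took the name of their accession where RefSeq's table gave one (548); 14 entries carried a date in place of a symbol. No sample column stayed unmapped.

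Each library's median was subtracted, and treat in limma 3.58.1 (R 4.3.3; trend and robust variance) tested distances over 1 log2 unit, with p-values adjusted over all windows, or over all pairs. The test was checked on simulated data. A gene's level is its highest window. Pairs share a symbol stem, have windows that do not overlap and, where gene descriptions are given, have descriptions ending in a and b. Of the pairs kept, 46 lie on 1 chromosome. P-values rest on the spread between 3 replicates, which limma moderates with the spread over all windows or pairs. They therefore do not reflect a window's own replicates alone. The labels do not tie the replicates to separate clutches.

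Members and lists were chosen with earlier results of these data known; family patterns were tightened by name, and 5 lists were added, after the table was seen. Of 3484 listed names 61 were not measured. Named were the highest and lowest gene of each list, the first 3 of each tissue list, and the windows and pairs of largest level, spread or difference. Spread was ranked only among windows above the median window. Other genes were named after their values were seen. No set test was made, so medians and counts of lists are descriptions. Alternatives were other distances, scalings, filters and windows, and leaving out each replicate. A few genes of the lists are not reported here by name.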

Additional observations from a re-analysis of the deposited data

How the results depend on the processing

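The counts of calls moved by over 1.5 times only with the distance required. At 0.5 log2 units 5494 windows were open, and at 1.5 log2 units 1996 were open and 2304 closed, against 3586 and 3962 at 1 log2 unit. With any difference above 0 counted, 1218 a/b pairs differed, against 504. Quantile normalization, a common centre, no filter, a level of at least 4, 6 libraries kept apart, windows that overlap no other and windows without copies and contigs kept the counts of open and closed windows within 1.5 times. The count of pairs stayed within 1.5 times with quantile normalization, a mean over a gene's windows, a level of at least 4 and 6 libraries kept apart, and a common centre, no filter, windows that overlap no other and windows without copies and contigs were not run for pairs. No window called open in the report was closed in an alternative run, and no closed window was open. Leaving out each replicate gave 3483 to 3534 open windows, 3845 to 3981 closed windows and 480 to 495 pairs.

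Regulators lay 1.58 log2 units above products with only the wider library of each technical pair and 1.36 with only the narrower one, against 1.43; these 2 alternatives were chosen after seeing the data. Of 258 genes picked by rule from the lists and windows, 11 changed their call when a replicate was left out. The windows of mir430 are among them. Genes named after their values were seen are not part of this count. At most 1 of 88 lists changed its side of the median window in any alternative tried. No paired analysis was possible because only the wildtype siblings are compared here, so replicate numbers pair no groups. Sequence features of promoters were not analysed here. The depth is unknown, so no counting error can be given for windows near the floor.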
